A study of Mus musculus with 12 samples.

Results

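The genes described here act at the G1/S transition and in DNA replication: they license and fire origins, build the replication fork, supply nucleotides, package new DNA and drive entry into S phase. A list of 42 such genes was followed through 12 Affymetrix arrays of mouse T cells. A gene was measured through the array row that carries its symbol and no other, and through the brightest such row over the 12 arrays where a gene had several. This gave 40 of the 42 genes, among 22180 genes measured in the same way. Ccne2 (cyclin E2) and Rfc4 (a clamp loader subunit) lie on rows shared with another symbol and were not used here.

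The 4 groups of 3 arrays were natural regulatory T cells (nTregs) with AzaC, nTregs with PBS, CD4 effector T cells with AzaC, and CD4 effector T cells with PBS. AzaC, azacitidine, is an analogue of cytidine that cells incorporate into RNA and DNA, where it traps DNA methyltransferases. Per the protocols, nTregs came from spleens of B6.Foxp3GFP mice and the other T cells, depleted of Tregs, from B6.Foxp3GFP x B6.CAGDSRED mice, although the strain entry of all 12 samples names the cross with the DsRed transgene. In every group, 1 nTreg per 10 effector cells had been cultured together with beads against CD3 and CD28 and 500 U/mL human IL-2 for 2 days. AzaC at 1 µM or PBS was then given for 2 days. GFP reports Foxp3 and DsRed marks the effector cells, and the sort took CD4+DSRED-FOXP3GFP+ cells as nTregs and CD4+DSRed+FOXP3GFP- cells as CD4 effectors. Neither the animals' age nor whether the 3 samples of a group came from separate mice or cultures is stated in those protocols.

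Before S phase, the origin recognition complex with CDC6 and CDT1 loads the MCM helicase onto DNA. Kinases of the D and E cyclins release E2F factors from the RB protein, and E2F then raises the transcription of most genes of this list. CDC45, GINS and MCM10 turn the loaded helicase into a moving fork, where DNA polymerases copy both strands from a supply of deoxynucleotides. Activated T cells pass through this programme as they begin to divide.

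The textbook element of such promoters is the E2F site, searched for here as the octamers TTTCCCGC, TTTCGCGC, TTTGCCGC and TTTGGCGC on both strands. RefSeq promoter windows (build GRCm38.p6, 250 bases before to 50 after a start) were matched by symbol to 34 of the 40 measured genes, and 15 of these 34 (44.1%) held an octamer. Over all genes with a window 704 of 27025 held one (2.60%), and of 64 other G1/S and replication genes 17 did (26.6%). Of 21 genes of G2 and mitosis 1 did (4.76%). The 15 include Mcm3, Mcm5, Mcm6, Mcm7, Cdc6, Cdt1, Orc1, Pola1, Rfc3, E2f2, E2f3 and E2f7. No octamer stood in the windows of Mcm2, Tk1 and Chaf1b, which says only that these letters are not there. A match is a description of sequence and not a shown binding site. Below are the 5 windows with an octamer among genes that were higher with AzaC in a test, each 5′ to 3′ on the gene's strand, with the octamers in capitals.
Cdc6 (chr11:98907901-98908200, plus strand): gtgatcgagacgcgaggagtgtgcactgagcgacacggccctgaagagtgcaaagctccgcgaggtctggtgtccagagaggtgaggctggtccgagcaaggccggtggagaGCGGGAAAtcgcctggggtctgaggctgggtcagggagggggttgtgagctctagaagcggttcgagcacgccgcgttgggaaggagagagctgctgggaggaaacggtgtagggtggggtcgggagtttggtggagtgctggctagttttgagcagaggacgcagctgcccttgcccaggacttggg
Mcm6 (chr1:128359656-128359955, minus strand): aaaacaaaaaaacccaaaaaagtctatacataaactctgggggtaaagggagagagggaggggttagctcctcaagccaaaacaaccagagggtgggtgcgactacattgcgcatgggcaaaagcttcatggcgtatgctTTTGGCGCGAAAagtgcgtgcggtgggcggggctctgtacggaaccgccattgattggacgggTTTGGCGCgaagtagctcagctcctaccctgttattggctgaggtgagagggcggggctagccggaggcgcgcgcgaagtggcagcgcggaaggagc
Orc1 (chr4:108579204-108579503, plus strand): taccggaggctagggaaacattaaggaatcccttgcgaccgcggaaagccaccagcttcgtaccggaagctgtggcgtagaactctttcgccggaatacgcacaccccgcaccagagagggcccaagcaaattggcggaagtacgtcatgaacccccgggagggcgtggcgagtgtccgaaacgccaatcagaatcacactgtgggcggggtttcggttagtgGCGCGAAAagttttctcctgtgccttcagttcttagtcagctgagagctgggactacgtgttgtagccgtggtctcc
E2f7 (chr10:110745189-110745488, plus strand): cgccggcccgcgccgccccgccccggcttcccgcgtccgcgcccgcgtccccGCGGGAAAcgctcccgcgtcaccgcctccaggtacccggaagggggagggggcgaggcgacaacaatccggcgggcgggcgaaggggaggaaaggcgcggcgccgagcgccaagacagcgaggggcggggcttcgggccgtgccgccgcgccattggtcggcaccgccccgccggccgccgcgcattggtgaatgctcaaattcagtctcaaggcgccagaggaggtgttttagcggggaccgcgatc
Pola1 (chrX:93632106-93632405, minus strand): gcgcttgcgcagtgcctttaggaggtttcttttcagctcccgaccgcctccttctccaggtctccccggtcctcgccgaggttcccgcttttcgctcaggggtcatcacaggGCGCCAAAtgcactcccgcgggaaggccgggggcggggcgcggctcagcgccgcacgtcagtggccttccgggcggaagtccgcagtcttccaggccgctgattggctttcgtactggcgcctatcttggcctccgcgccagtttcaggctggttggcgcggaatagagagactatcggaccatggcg
Counted from the start the promoter table gives, the octamer of Cdc6 begins at −138, that of Orc1 at −27, that of E2f7 at −198 and that of Pola1 at −138. Mcm6 holds 3 octamers, at −110, −106 and −47, of which the first pair overlap and read on opposite strands.

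All values below are the authors' log2 signals, so a difference of 1 is a 2-fold change, and levels of different genes are not set against each other. The fit was limma with 1 mean per group over all 12 arrays, and a gene was called, that is, it rose or fell, at an adjusted p under 0.05 over 22180 genes. With 3 arrays a group the SE of a difference lay between 0.10 and 0.26 over the 40 genes, with a median of 0.13. A p-value here rests only on how these 12 arrays scattered, and part of that scatter may be technical. RNA of a whole sample cannot tell fewer cells in S phase from less RNA per cell.

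The sorts matched their labels at Foxp3, the factor that defines Tregs, which was higher in nTregs than in CD4 cells by 4.29 (SE 0.16) under PBS and by 3.08 (SE 0.16) with AzaC (limma, adjusted p = 6.48e-09 and 8.35e-08). In CD4 cells Foxp3 itself rose with AzaC by 1.57 (SE 0.16, adjusted p = 0.000207). The summed signal of 7 of 8 T cell markers was 14.87 to 14.89 in nTregs with AzaC and 14.85 to 14.95 in nTregs with PBS, and 14.93 to 15.01 in CD4 cells with AzaC and 15.16 to 15.21 in CD4 cells with PBS. One array, nTreg PBS 1, stood apart: its mean correlation with the others was 0.972, CD4 PBS 3 followed with 0.979, and the remaining arrays had 0.983 to 0.987. nTreg PBS 1 was the lowest of the 12 arrays for 24 of the 40 genes, against 17.7% of all genes, so values that moved with it by over 1.5 times are given with and without it beside the results for nTregs.

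**Figure D1:**
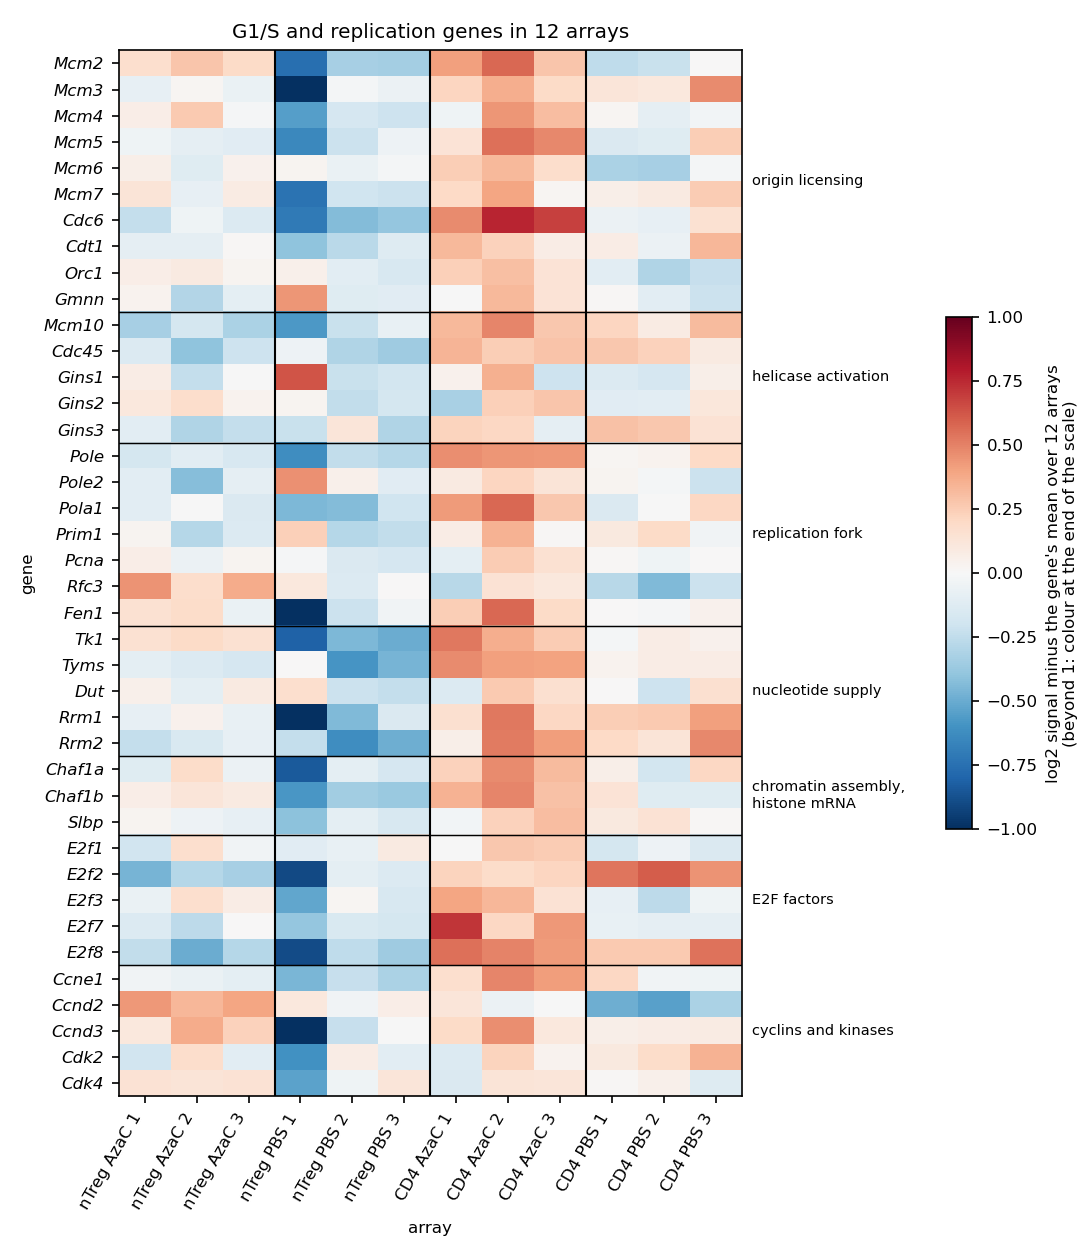
Log2 signal of each of the 40 genes (rows, by role) in each of the 12 arrays (columns, by group), shown as the deviation from the gene's mean over the arrays. Deviations beyond 1 in either direction take the colour at the end of the scale. The array nTreg PBS 1 has the lowest value for 24 genes and CD4 AzaC 2 has the highest value for 20.

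The arrays ordered by group. Summed up as the median deviation of the 40 genes from their means, the nTreg AzaC arrays stood at −0.04, −0.05 and −0.06 and the nTreg PBS arrays at −0.45, −0.21 and −0.17. The CD4 AzaC arrays stood at 0.21, 0.35 and 0.22 and the CD4 PBS arrays at 0.02, −0.03 and 0.06. Each AzaC group thus lay above its PBS group with no overlap, and nTregs lay below CD4 cells in both conditions.

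AzaC raised a few genes of replication in each population and lowered none of the 40. In nTregs 3 rose (Tk1, Mcm2 and Chaf1b), against 2.02% of all genes called, 1.42% as higher and 0.600% as lower. In CD4 cells 6 rose (Cdc6, Mcm2, Orc1, Mcm6, E2f7 and Ccnd2), against 1.76% of all genes called, 0.830% as higher and 0.933% as lower. In nTregs the median over the 40 genes was 0.23, where that over all genes was −0.04, and in CD4 cells it was 0.23, where that over all genes was 0.01. The nTreg median was 0.15 without nTreg PBS 1, with 32 genes above 0, and 0.12 with quantile normalization repeated. In nTregs 34 of the 40 lay above 0, against 41.9% of all genes, and in CD4 cells 36 did, against 52.8%. Both differences were above 0 for 31 genes, against 19.8% of all genes. No difference of any of the 40 genes reached 1, so all were smaller than 2-fold.

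Counts at a looser level ran the same way. At an unadjusted p under 0.05 in limma, 14 genes were higher and 1 lower in nTregs, against 9.11% and 7.66% of all genes. In CD4 cells 16 were higher and 0 lower, against 7.45% and 7.77% of all genes. The arrays of AzaC and PBS did not overlap for 17 genes higher and 0 lower in nTregs, where 11.0% and 13.5% of all genes did so. In CD4 cells 17 were higher and 1, E2f2, was lower without overlap, against 11.4% and 12.2% of all genes. Higher without overlap in both populations were 8 genes (Mcm2, Cdc6, Pole, Pola1, Tk1, Chaf1b, Ccnd2 and Ccnd3), against 2.08% of all genes, and 0 were lower, against 1.87%.

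**Figure D2:**
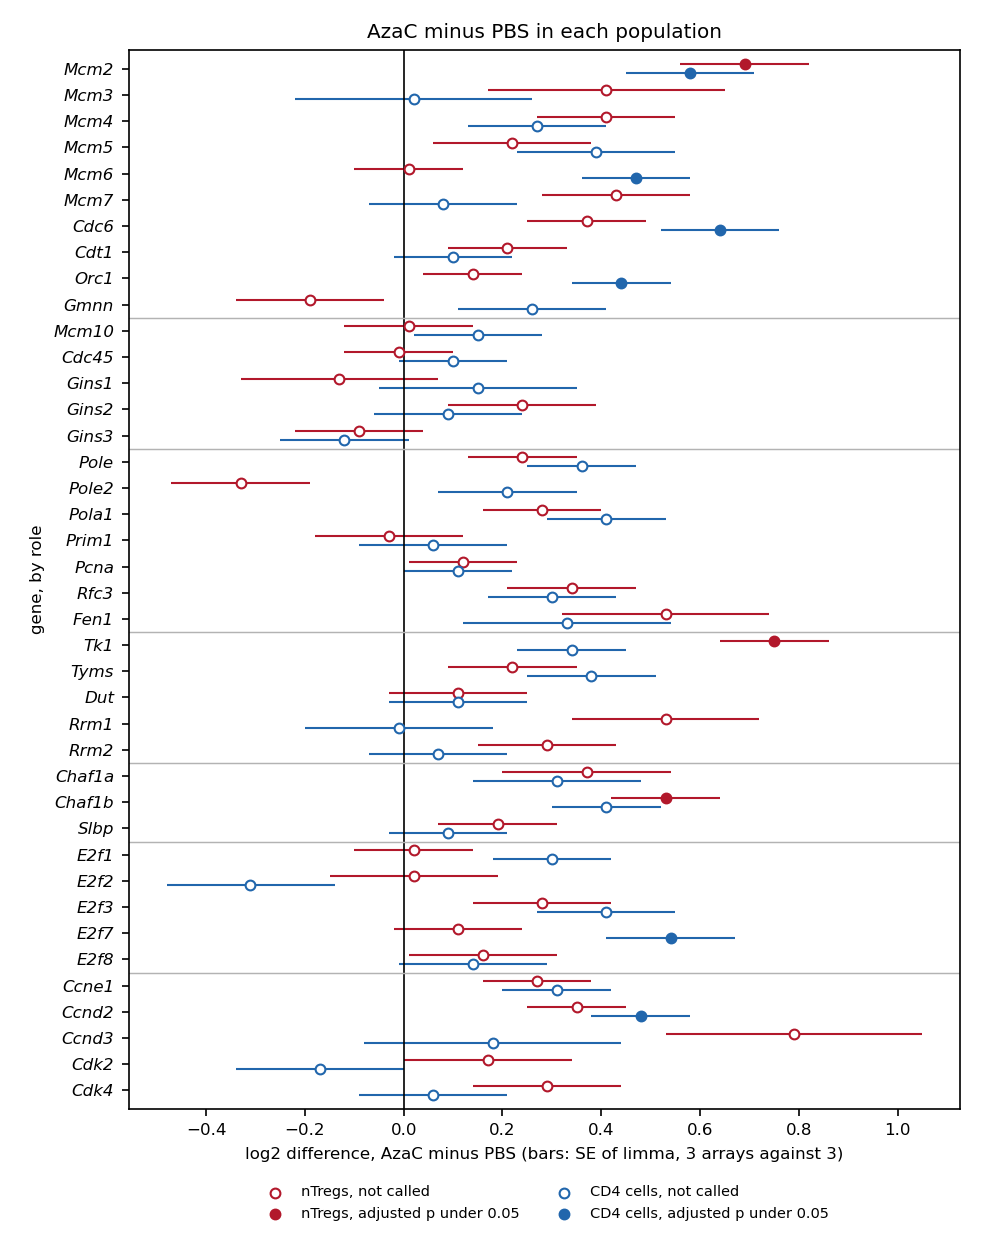
Log2 difference AzaC minus PBS (horizontal axis) for each of the 40 genes in nTregs (red, above) and CD4 cells (blue, below), with bars for the SE. Filled points passed an adjusted p under 0.05 and number 3 in nTregs and 6 in CD4 cells, and all filled points lie to the right of 0.

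Markers of cell types moved with the drug too. In CD4 cells all 7 T cell markers had differences below 0 with AzaC, with a median of −0.23 and 0 called, and their summed signals given above did not overlap between AzaC and PBS. The CD8 coreceptor gene Cd8a rose in nTregs by 1.39 (SE 0.19, limma adjusted p = 0.0018) and Cd8b1 by 0.72 (SE 0.15, adjusted p = 0.0213). The summed signal of these 2 of 2 markers was 11.24 to 11.37 in nTregs with AzaC and 10.35 to 10.69 in nTregs with PBS. In CD4 cells it was 9.74 to 10.31 with AzaC and 10.14 to 10.40 with PBS. The 6 Treg markers summed to 13.79 to 13.87 in CD4 cells with AzaC and 13.40 to 13.42 in CD4 cells with PBS. In nTregs they summed to 14.82 to 14.83 with AzaC and 14.42 to 14.63 with PBS. Their differences ran from −0.16 (Ctla4) to 1.57 (Foxp3) in CD4 cells, with 5 of 6 above 0 and 2 called higher. In nTregs they ran from 0.14 (Ctla4) to 0.96 (Itgae), with 1 called higher. Of all genes 0.830% and 1.42% were called higher. All 4 NK cell markers were measured and summed to 7.95 to 8.38 in CD4 cells with AzaC, against 8.72 to 9.04 in CD4 cells with PBS. The 1 called of these 4 was Klrd1, at −1.35. Their median was −0.06, and 2 of the 4 lay above 0. The 7 myeloid markers summed to 9.60 to 9.81 in nTregs with AzaC and to 9.85 to 10.11 in nTregs with PBS. Their nTreg differences ran from −0.94 (Itgam) to 0.08 (Itgax), with a median of −0.16 and 1 above 0. Of these 7 limma called 1 lower, against 0.600% of all genes. The part of these markers in the results was not tested.

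The origin licensing genes, which load the MCM helicase, gave 1 of the 3 calls in nTregs and 4 of the 6 in CD4 cells. Of these 10 genes, 9 lay above 0 in nTregs and 10 in CD4 cells (41.9% and 52.8% of all genes), with medians of 0.29 and 0.33. Several of the nTreg differences were smaller without nTreg PBS 1, where the 10 ran from −0.00 (Mcm3) to 0.55 (Mcm2). The nTreg median thus rests in part on that array. Mcm2, a subunit of the helicase, measured 10.11, 10.22 and 10.13 in nTregs with AzaC against 9.19, 9.61 and 9.60 in nTregs with PBS. In CD4 cells it measured 10.35, 10.52 and 10.22 with AzaC against 9.69, 9.72 and 9.95 with PBS. All AzaC arrays lay above all PBS arrays of the same population. Mcm2 was the 1 gene of the 40 called in both populations, and rose 1.61-fold in nTregs (log2 difference 0.69, SE 0.13, limma adjusted p = 0.0143) and 1.49-fold in CD4 cells (0.58, SE 0.13, adjusted p = 0.0395). The nTreg call was lost without nTreg AzaC 1, 2 or 3 (adjusted p = 0.0525, 0.0746 and 0.0581). It held without nTreg PBS 1, at 0.55 (adjusted p = 0.0275). The CD4 call held without each nTreg PBS array and without CD4 PBS 3, and was lost without each of the other 8 arrays (adjusted p from 0.0611 to 0.129).

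Cdc6, which recruits the helicase to origins, showed its clearest AzaC difference in CD4 cells. It measured 9.88, 10.17 and 10.09 in CD4 cells with AzaC against 9.35, 9.32 and 9.56 in CD4 cells with PBS, and 9.17, 9.36 and 9.27 in nTregs with AzaC against 8.70, 8.97 and 9.02 in nTregs with PBS. The groups did not overlap in either population. It rose 1.55-fold in CD4 cells (0.64, SE 0.12, limma adjusted p = 0.0146), and the nTreg difference of 0.37 (SE 0.12) did not pass (adjusted p = 0.149). The call was lost without CD4 PBS 1 or 2 or CD4 AzaC 2 or 3 (adjusted p = 0.0639, 0.0708, 0.0595 and 0.0714).

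Orc1, the large subunit of the origin recognition complex, measured 7.34, 7.40 and 7.24 in CD4 cells with AzaC against 7.0, 6.80 and 6.87 in CD4 cells with PBS. In nTregs it measured 7.17, 7.19 and 7.13 with AzaC against 7.15, 7.0 and 6.94 with PBS, where the groups touched at 1 array. The rise in CD4 cells was 0.44 (SE 0.10, limma adjusted p = 0.0395), and the nTreg difference was 0.14 (SE 0.10, adjusted p = 0.498). Its CD4 call held without nTreg PBS 1 or 3 and was lost without each of the other 10 arrays (adjusted p from 0.0577 to 0.136). Mcm6, another helicase subunit, measured 10.98, 11.06 and 10.91 in CD4 cells with AzaC against 10.42, 10.40 and 10.71 in CD4 cells with PBS. In nTregs it measured 10.79, 10.61 and 10.78 with AzaC against 10.76, 10.67 and 10.71 with PBS, with overlap. Mcm6 rose by 0.47 in CD4 cells (SE 0.11, adjusted p = 0.041) and differed by 0.01 in nTregs (SE 0.11, adjusted p = 0.961). That call held without CD4 PBS 3 or nTreg PBS 1 and was lost without each of the other 10 arrays (adjusted p from 0.0542 to 0.14).

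The other helicase subunits did not pass in either population. Over Mcm3, Mcm4, Mcm5 and Mcm7 the differences ran from 0.22 (Mcm5) to 0.43 (Mcm7) in nTregs and from 0.02 (Mcm3) to 0.39 (Mcm5) in CD4 cells. Mcm7 measured 9.69, 9.48 and 9.64 in nTregs with AzaC against 8.82, 9.36 and 9.34 in nTregs with PBS, and without nTreg PBS 1 its difference of 0.43 became 0.25. Without that array Mcm3 lay at −0.00, Mcm4 at 0.29 and Mcm5 at 0.05 in nTregs. Mcm3 measured 10.14, 10.24 and 10.15 in nTregs with AzaC against 8.96, 10.20 and 10.16 in nTregs with PBS, so that nTreg PBS 1 alone was far off. Cdt1, which loads the helicase with CDC6, differed by 0.21 in nTregs and 0.10 in CD4 cells. Gmnn, geminin, which binds and inhibits CDT1, differed by −0.19 in nTregs (0.00 without nTreg PBS 1) and 0.26 in CD4 cells, and neither passed.

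Of the 5 helicase activation genes limma called 0 in either population, and 0 of 5 stood at an unadjusted p under 0.05 as well. Their differences ran from −0.13 (Gins1) to 0.24 (Gins2) in nTregs and from −0.12 (Gins3) to 0.15 (Mcm10) in CD4 cells. In nTregs the values after dropping nTreg PBS 1 ran from −0.13 (Mcm10 and Gins3) to 0.32 (Gins2), and Gins1 lay at 0.15.

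At the replication fork, 0 of 7 genes were called in either population. At an unadjusted p under 0.05 in limma, 3 were higher and 1 lower in nTregs (9.11% and 7.66% of all genes). In CD4 cells 3 were higher at that level (7.45%). Pola1, the catalytic subunit of the polymerase that primes DNA synthesis, measured 8.65, 8.75 and 8.61 in nTregs with AzaC against 8.30, 8.32 and 8.55 in nTregs with PBS. In CD4 cells it measured 9.18, 9.33 and 9.02 with AzaC against 8.61, 8.75 and 8.96 with PBS. No AzaC array of Pola1 fell among the PBS arrays of its population, yet neither difference passed alone: 0.28 (SE 0.12) and 0.41 (SE 0.12), at limma adjusted p = 0.268 and 0.121. Pole, the catalytic subunit of the leading-strand polymerase, measured 9.60, 9.67 and 9.62 in nTregs with AzaC against 9.16, 9.53 and 9.49 in nTregs with PBS. The CD4 cells gave 10.24, 10.22 and 10.21 with AzaC against 9.80, 9.81 and 9.98 with PBS, and again no group overlapped. Its differences were 0.24 and 0.36 (SE 0.11 each, adjusted p = 0.298 and 0.129), the first of which was 0.12 without nTreg PBS 1. Pole2, the second subunit of the same enzyme, differed by −0.33 in nTregs (SE 0.14; −0.17 without nTreg PBS 1) and by 0.21 in CD4 cells, and neither passed.

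The rest of the fork varied in between. Pcna, the sliding clamp, differed by 0.12 and 0.11 in nTregs and CD4 cells and Prim1, the primase, by −0.03 (0.13 without nTreg PBS 1) and 0.06. Rfc3, of the clamp loader, differed by 0.34 and 0.30. Fen1, which trims Okazaki fragments, differed by 0.53 (SE 0.21) and 0.33 (SE 0.21), and its value on nTreg PBS 1 was 6.48, the lowest of its 12. Without that array its nTreg difference was 0.22 (SE 0.13).

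Among the genes of nucleotide supply, Tk1 stood out in nTregs. Thymidine kinase, its product, salvages thymidine for DNA synthesis. Tk1 measured 9.84, 9.88 and 9.84 in nTregs with AzaC against 8.88, 9.24 and 9.19 in nTregs with PBS, and 10.21, 10.05 and 9.94 in CD4 cells with AzaC against 9.67, 9.76 and 9.73 in CD4 cells with PBS. The groups were separate in both populations. It rose 1.68-fold in nTregs (0.75, SE 0.11, limma adjusted p = 0.00292), and this call held without each of the 12 arrays in turn, where adjusted p ran from 0.0042 to 0.0197. Without nTreg PBS 1 the difference was 0.64 (adjusted p = 0.005). In CD4 cells the difference was 0.34 (SE 0.11, adjusted p = 0.159).

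Tyms, thymidylate synthase, measured 9.74, 9.70 and 9.67 in nTregs with AzaC against 9.84, 9.25 and 9.37 in nTregs with PBS. The array nTreg PBS 1 was above all AzaC arrays here, the reverse of its place for most genes of the list. The nTreg difference was 0.22 (SE 0.13, limma adjusted p = 0.408) with that array and 0.40 (SE 0.09, adjusted p = 0.0467) without it. In CD4 cells Tyms measured 10.31, 10.25 and 10.24 with AzaC against 9.87, 9.91 and 9.91 with PBS, a separation of 0.38 (SE 0.13) that did not pass (adjusted p = 0.186). Ribonucleotide reductase, which makes deoxynucleotides, is built from the products of Rrm1 and Rrm2. Rrm1 measured 9.44, 9.56 and 9.45 in nTregs with AzaC against 8.40, 9.08 and 9.38 in nTregs with PBS, and 9.68, 10.05 and 9.73 in CD4 cells with AzaC against 9.77, 9.78 and 9.93 in CD4 cells with PBS. The nTreg groups were separate and the CD4 groups overlapped. Rrm1 differed by 0.53 in nTregs (SE 0.19, adjusted p = 0.186; 0.25 without nTreg PBS 1) and by −0.01 in CD4 cells (SE 0.19). Rrm2 measured 9.18, 9.27 and 9.34 in nTregs with AzaC against 9.18, 8.80 and 8.93 in nTregs with PBS, and 9.48, 9.94 and 9.84 in CD4 cells with AzaC against 9.62, 9.55 and 9.90 in CD4 cells with PBS. Both pairs overlapped, with differences of 0.29 and 0.07 (SE 0.14 each) that did not pass. Dut, which removes dUTP, differed by 0.11 in each population, and by 0.24 in nTregs without nTreg PBS 1.

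In chromatin assembly, Chaf1b passed in nTregs. It encodes a subunit of CAF-1, which deposits histones on new DNA. Chaf1b measured 9.36, 9.41 and 9.38 in nTregs with AzaC against 8.71, 8.94 and 8.92 in nTregs with PBS. In CD4 cells it measured 9.64, 9.78 and 9.58 with AzaC against 9.43, 9.17 and 9.17 with PBS. Both pairs were separate. It rose by 0.53 in nTregs (SE 0.11, limma adjusted p = 0.0244), and the CD4 difference of 0.41 (SE 0.11) did not pass (adjusted p = 0.0796). The nTreg call was lost without nTreg PBS 1 (0.45, adjusted p = 0.0541) and without nTreg AzaC 1, 2 or 3 (adjusted p = 0.0742, 0.105 and 0.0938). Its partner Chaf1a differed by 0.37 and 0.31, and Slbp, which binds histone mRNA, by 0.19 and 0.09. The nTreg values without nTreg PBS 1 were 0.14 for Chaf1a and 0.09 for Slbp.

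The E2F factors showed 1 call, in CD4 cells. E2f7, an E2F that represses E2F targets, measured 9.98, 9.47 and 9.70 in CD4 cells with AzaC against 9.19, 9.17 and 9.17 in CD4 cells with PBS. In nTregs it measured 9.13, 9.00 and 9.27 with AzaC against 8.88, 9.11 and 9.09 with PBS, with overlap. E2f7 rose by 0.54 in CD4 cells (SE 0.13, limma adjusted p = 0.0495), next to the threshold, and differed by 0.11 in nTregs (SE 0.13). Its call held without CD4 AzaC 2 or nTreg PBS 1 and was lost without each of the other 10 arrays (adjusted p from 0.0602 to 0.202). E2f8, the other such repressor, measured 10.35, 10.10 and 10.31 in nTregs with AzaC against 9.70, 10.34 and 10.24 in nTregs with PBS, and 11.15, 11.09 and 11.02 in CD4 cells with AzaC against 10.86, 10.86 and 11.14 in CD4 cells with PBS. Its AzaC groups overlapped with PBS in both populations, at 0.16 and 0.14 (SE 0.15 each), and the nTreg value was −0.04 without nTreg PBS 1. E2f2, an activating E2F, measured 8.67, 8.85 and 8.80 in nTregs with AzaC against 8.23, 9.04 and 9.00 in nTregs with PBS. In CD4 cells it measured 9.36, 9.32 and 9.35 with AzaC against 9.67, 9.74 and 9.58 with PBS. All 3 CD4 AzaC arrays were lower than all CD4 PBS arrays, but the difference of −0.31 (SE 0.17) did not pass (adjusted p = 0.391). The activating factors E2f1 and E2f3 differed by 0.02 and 0.28 in nTregs, and by 0.30 and 0.41 in CD4 cells. Leaving out nTreg PBS 1 gave nTreg differences of −0.24 for E2f2, −0.03 for E2f1, 0.13 for E2f3 and 0.04 for E2f7.

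Among cyclins and kinases, Ccnd2 and Ccnd3 encode D cyclins, which start the G1/S programme by activating CDK4 and CDK6. Ccnd2 measured 13.08, 12.98 and 13.04 in nTregs with AzaC against 12.75, 12.61 and 12.71 in nTregs with PBS, and 12.77, 12.59 and 12.64 in CD4 cells with AzaC against 12.16, 12.10 and 12.33 in CD4 cells with PBS. Both pairs were separate. It rose by 0.48 in CD4 cells (SE 0.10, limma adjusted p = 0.027), while 0.35 in nTregs (SE 0.10) did not pass (adjusted p = 0.0962). The CD4 call was lost without CD4 PBS 1 or 2 or CD4 AzaC 1 or 3 (adjusted p = 0.0908, 0.108, 0.115 and 0.086). Ccnd3 measured 10.36, 10.63 and 10.49 in nTregs with AzaC against 8.81, 10.03 and 10.25 in nTregs with PBS, and 10.45, 10.72 and 10.36 in CD4 cells with AzaC against 10.32, 10.33 and 10.34 in CD4 cells with PBS. Its 8.81 on nTreg PBS 1 was far below the rest. The nTreg difference of 0.79 (SE 0.26) was the largest of the 40 genes but did not pass (adjusted p = 0.152), and it was 0.35 without that array. Ccne1, cyclin E1, differed by 0.27 and 0.31, Cdk4 by 0.29 and 0.06, and Cdk2 by 0.17 and −0.17, none past the test. In nTregs Cdk4 and Cdk2 lay at 0.10 and −0.03 without nTreg PBS 1.

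**Figure D3:**
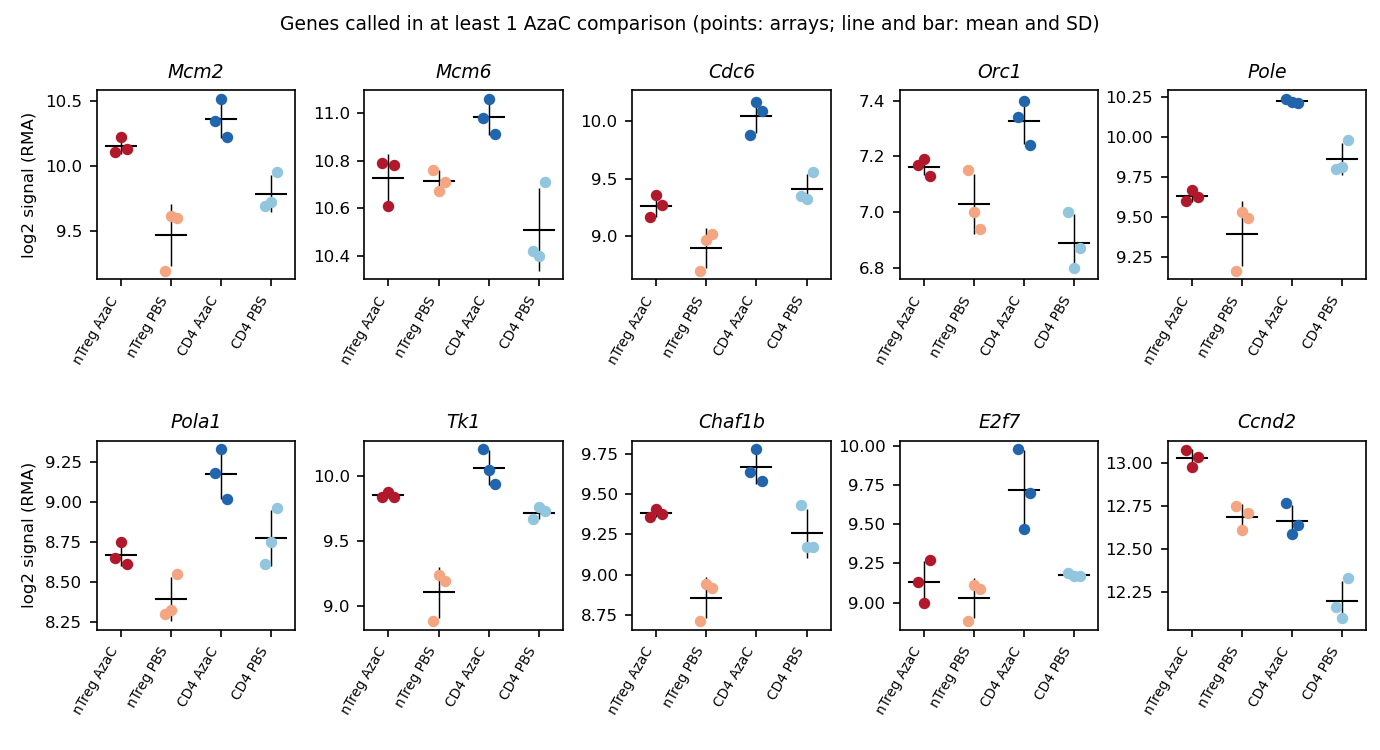
Log2 signal in every array for the 10 genes of the list called in at least 1 AzaC comparison, by group (vertical axis differs between genes and does not start at 0). Points are arrays, lines are group means and bars are SDs, and for Mcm2, Cdc6, Pole, Pola1, Tk1, Chaf1b and Ccnd2 the AzaC arrays lie above the PBS arrays in both populations.

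The CD4 calls depended on the scaling. With each array centred on its median, 1 of the 6 remained (Cdc6), and the median of the 40 genes was 0.16 where all genes had −0.06. The 5 others kept differences of 0.50 (Mcm2), 0.40 (Mcm6), 0.36 (Orc1), 0.47 (E2f7) and 0.40 (Ccnd2), at limma adjusted p from 0.0592 to 0.098. The 3 nTreg calls remained under this scaling. With quantile normalization repeated, 8 genes were called in CD4 cells, 5 of the 6 among them, against 1.54% of all genes. The median of the 40 genes in CD4 cells was then 0.32 where all genes had 0.00. In a fit on only the groups compared, Tk1 remained in nTregs and Cdc6 and Mcm2 in CD4 cells. Without nTreg PBS 1, an array outside that comparison, 11 genes were called in CD4 cells, the 6 among them, with the same differences. The share of all genes called was then 4.71%, against 1.76% with that array.

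Averaged over both populations, which takes 6 arrays against 6 and shares all of them with the separate comparisons, 8 genes rose and 0 fell with AzaC, against 3.71% of all genes called, 2.04% as higher and 1.66% as lower. They were Mcm2 at 0.63 (SE 0.09, limma adjusted p = 0.00129), Tk1 at 0.55 (SE 0.08, adjusted p = 0.00126), Cdc6 at 0.50 (SE 0.08, adjusted p = 0.00399), Chaf1b at 0.47 (SE 0.08, adjusted p = 0.00317), Ccnd2 at 0.41 (SE 0.07, adjusted p = 0.00407), Pola1 at 0.34 (SE 0.09, adjusted p = 0.0404), Pole at 0.30 (SE 0.08, adjusted p = 0.0486) and Orc1 at 0.29 (SE 0.07, adjusted p = 0.0356). The first 5 of these held without each of the 12 arrays. Orc1 was lost without any array but CD4 PBS 1 and nTreg PBS 1, at adjusted p up to 0.0975. Pola1 held without CD4 PBS 3, CD4 AzaC 3, nTreg PBS 1 and nTreg PBS 3 and was lost without each of the other 8 arrays, at up to 0.113. Pole held without CD4 PBS 3, nTreg PBS 1 and nTreg PBS 2 and was lost without each of the other 9, at up to 0.122. The mean of Pole over its brighter and dimmer array rows did not pass either (adjusted p = 0.528), and with each array centred on its median Pola1 and Pole did not pass (adjusted p = 0.0751 and 0.0855). The average without nTreg PBS 1 gave 10 genes higher and 1 lower, E2f2 at −0.28 (adjusted p = 0.0233), against 5.61% of all genes called.

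Whether the drug acted unequally on the populations was tested as the AzaC difference in nTregs minus that in CD4 cells. For this interaction limma called 0 of the 40 genes, against 0.203% of all genes. At an unadjusted p under 0.05 it gave 1 higher (Tk1 at 0.41, SE 0.16, adjusted p = 0.234) and 4 lower, against 8.16% and 9.29% of all genes. The values ran from −0.55 (Pole2, SE 0.20) to 0.61 (Ccnd3, SE 0.37), with a median of 0.01, which was 0.14 with each array centred on its median and −0.16 with quantile normalization repeated. Without nTreg PBS 1 it was −0.02, with Ccnd3 at 0.17, Pole2 at −0.38 and Tk1 at 0.29. Mcm6 stood at −0.46 (SE 0.15, adjusted p = 0.204). A call in a single population therefore did not go with a shown difference between the populations, and with an SE of up to 0.37 such a difference could not be resolved for every gene.

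Several replication genes were lower in nTregs than in CD4 cells. Under PBS the lowest differences were those of E2f2, Rrm1 and E2f8 (−0.90, −0.88 and −0.86), without nTreg PBS 1 that of Rrm2 (−0.82), and with AzaC those of E2f8 and Cdc6 (−0.83 and −0.78). Under PBS 11 of the 40 genes were lower in nTregs and 1, Ccnd2, was higher, against 8.01% of all genes called, 4.12% as lower and 3.90% as higher. With AzaC 9 were lower and 1, again Ccnd2, was higher, against 6.75% of all genes called, 2.19% as lower and 4.57% as higher. The median difference of the 40 genes was −0.37 under PBS and −0.27 with AzaC, where all genes had 0.03 and −0.04. The groups did not overlap for 24 genes lower and 2 higher under PBS (13.2% and 13.5% of all genes), and for 23 lower and 3 higher with AzaC (17.2% and 15.1%). Lower without overlap in both conditions were 18 genes, against 4.29% of all genes, and Rfc3 and Ccnd2 were higher in both, against 4.97%. Called lower in both were 5 genes, Cdc6, Mcm10, Cdc45, Pole and E2f8, against 1.17%.

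**Figure D4:**
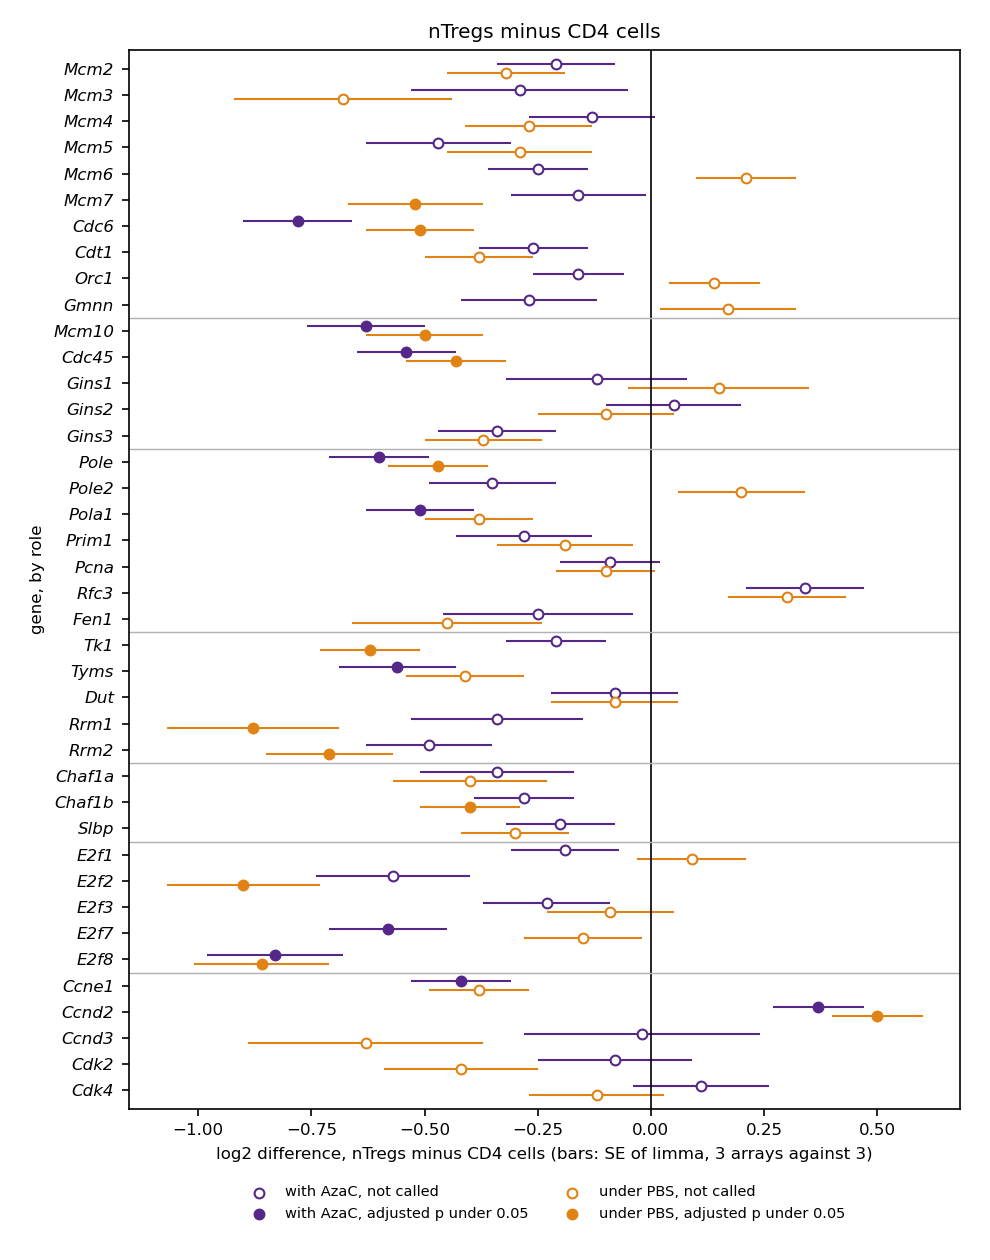
Log2 difference nTregs minus CD4 cells (horizontal axis) for each of the 40 genes with AzaC (purple, above) and under PBS (orange, below), with bars for the SE. Filled points passed an adjusted p under 0.05: 9 lie below 0 with AzaC and 11 under PBS, and Ccnd2 lies above 0 in both.

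Without nTreg PBS 1 the median under PBS was −0.21 and 10 genes were called, against 7.25% of all genes. Without that array Tyms was called lower in addition (−0.58, SE 0.09, limma adjusted p = 0.00127), whereas Mcm7, Mcm10 and Chaf1b were no longer called (adjusted p = 0.131, 0.0811 and 0.102). With array weights the median under PBS was −0.23. In a fit on only the 2 groups under PBS, Rrm2, Tk1 and E2f8 remained, and E2f2 (adjusted p = 0.0632), Ccnd2 (0.0628) and the other 7 did not. Of the 7 T cell markers limma called 3 lower in nTregs under PBS (4.12% of all genes). Below 0 there were 6 of the 7, the lowest Cd4 at −0.83, while Cd2 lay at 0.36. With AzaC limma called 0 of the 7 lower and 1 higher, Cd2 at 0.68 (2.19% and 4.57% of all genes). Below 0 with AzaC were 4 of the 7, the lowest again Cd4, at −0.40. The 5 of 6 B cell markers measured summed to 8.96 to 9.27 in nTregs with AzaC against 8.68 to 8.92 in CD4 cells with AzaC, and to 9.09 to 9.23 in nTregs with PBS against 8.80 to 8.92 in CD4 cells with PBS. Of these Cd79b, of the B cell receptor, was higher in nTregs by 1.08 with AzaC (SE 0.16, adjusted p = 0.000716) and by 0.80 under PBS (SE 0.16, adjusted p = 0.00691). It was the 1 B cell marker called in each condition. The 5 markers had a median of −0.04 with AzaC, with 3 below 0, and of 0.04 under PBS, with 2 below 0. The summed CD8 markers with AzaC and the summed NK markers under PBS did not overlap between the populations either. Klrd1, at −1.30, was the 1 called of the 4 NK markers under PBS, and 2 of the 4 lay above 0. The part of these markers in the results was not tested.

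The E2F repressor E2f8 was lower in nTregs in both conditions, by −0.86 under PBS (SE 0.15, 1.81-fold lower, limma adjusted p = 0.00295) and by −0.83 with AzaC (SE 0.15, adjusted p = 0.00343), and both calls held without each array. Without nTreg PBS 1 the difference under PBS was −0.66. E2f2 was 1.87-fold lower under PBS (−0.90, SE 0.17, adjusted p = 0.00424; −0.64 without nTreg PBS 1), a call that held without each array and was lost in the fit on only the groups compared. With AzaC it lay at −0.57 (SE 0.17), just outside the threshold (adjusted p = 0.0584). E2f7 differed by −0.15 under PBS (−0.08 without nTreg PBS 1) and was lower with AzaC by −0.58 (SE 0.13, adjusted p = 0.0123), a call lost without CD4 AzaC 1 (adjusted p = 0.0626) or nTreg AzaC 2 (adjusted p = 0.0659).

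In licensing and helicase activation, Cdc6 was lower in nTregs by −0.51 under PBS (SE 0.12, limma adjusted p = 0.0179) and by −0.78 with AzaC (SE 0.12, 1.72-fold lower, adjusted p = 0.000969). Its call under PBS was lost without CD4 PBS 3 (adjusted p = 0.0751) and that with AzaC held without each array. Mcm10, which helps to activate the helicase, measured 8.70, 8.86 and 8.72 in nTregs with AzaC against 9.36, 9.52 and 9.30 in CD4 cells with AzaC, and 8.46, 8.81 and 8.96 in nTregs with PBS against 9.25, 9.12 and 9.35 in CD4 cells with PBS. No nTreg array reached a CD4 array. It was lower by −0.63 with AzaC (SE 0.13, adjusted p = 0.00725), which held without each array, and by −0.50 under PBS (SE 0.13, adjusted p = 0.03), which was lost without CD4 PBS 1 or 3 or nTreg PBS 1 (adjusted p = 0.08, 0.109 and 0.0811). Cdc45, a part of the moving helicase, measured 9.30, 9.03 and 9.23 in nTregs with AzaC against 9.77, 9.68 and 9.72 in CD4 cells with AzaC, and 9.38, 9.13 and 9.08 in nTregs with PBS against 9.70, 9.66 and 9.52 in CD4 cells with PBS. Again the populations were separate. Its differences were −0.54 with AzaC (SE 0.11, adjusted p = 0.00813) and −0.43 under PBS (SE 0.11, adjusted p = 0.0307). The call with AzaC was lost without nTreg AzaC 2 (adjusted p = 0.0504), and that under PBS without CD4 PBS 1 or 2 or nTreg PBS 2 or 3 (adjusted p = 0.0998, 0.0922, 0.081 and 0.0841). Mcm7 was lower under PBS by −0.52 (SE 0.15, adjusted p = 0.0455; −0.34 without nTreg PBS 1), a call that held without CD4 AzaC 2 or nTreg PBS 2 or 3 and was lost without each of the other 9 arrays, at up to 0.151. Mcm7 lay at −0.16 with AzaC, and measured 9.76, 9.95 and 9.58 in CD4 cells with AzaC and 9.62, 9.65 and 9.81 in CD4 cells with PBS.

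In nucleotide supply 3 of 5 genes were lower in nTregs under PBS, against 4.12% of all genes. Rrm1 differed by −0.88 (SE 0.19, limma adjusted p = 0.0118), a call lost without CD4 PBS 3 (adjusted p = 0.0522). Rrm2 differed by −0.71 (SE 0.14, adjusted p = 0.00648) and Tk1 by −0.62 (SE 0.11, adjusted p = 0.00369), and both calls held without each array. The Rrm2 call was lost with the mean over its brighter and dimmer array rows (adjusted p = 0.17). With AzaC these genes differed by −0.34, −0.49 and −0.21, and none of the 3 passed. Tyms was lower with AzaC by −0.56 (SE 0.13, adjusted p = 0.0166), a call lost without CD4 AzaC 1 (adjusted p = 0.0711) or without nTreg AzaC 1, 2 or 3 (adjusted p = 0.0508, 0.0578 and 0.0688). These changes between the conditions were not called as interactions.

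At the fork and in chromatin assembly, Pole was lower in nTregs by −0.47 under PBS (SE 0.11, limma adjusted p = 0.0183) and by −0.60 with AzaC (SE 0.11, adjusted p = 0.00401). The call under PBS was lost without CD4 PBS 3 (adjusted p = 0.0716), and the mean over the array rows of Pole lost both (adjusted p = 0.289 and 0.068). Pola1 was lower with AzaC by −0.51 (SE 0.12, adjusted p = 0.0201), lost without CD4 AzaC 1 or 2 or nTreg AzaC 1 or 3 (adjusted p = 0.0686, 0.0784, 0.0726 and 0.0878). Chaf1b was lower under PBS by −0.40 (SE 0.11, adjusted p = 0.0377), a call that held without CD4 AzaC 1 or 2 or nTreg PBS 2 or 3 and was lost without each of the other 8 arrays, at up to 0.137.

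Ccnd2 was the 1 gene of the 40 called higher in nTregs. It was higher in nTregs by 0.50 under PBS (SE 0.10, 1.41-fold, limma adjusted p = 0.00692), which held without each array, and by 0.37 with AzaC (SE 0.10, adjusted p = 0.0394). The call with AzaC held without CD4 PBS 2 or 3 or nTreg PBS 1 or 2 and was lost without each of the other 8 arrays, at up to 0.135, and with quantile normalization repeated (adjusted p = 0.0698). Ccne1 measured 9.08, 9.05 and 9.02 in nTregs with AzaC against 9.28, 9.60 and 9.53 in CD4 cells with AzaC, and 8.66, 8.88 and 8.80 in nTregs with PBS against 9.32, 9.08 and 9.07 in CD4 cells with PBS. All nTreg arrays lay below the CD4 arrays of their condition. Ccne1 was lower with AzaC by −0.42 (SE 0.11, adjusted p = 0.0391) and lay at −0.38 under PBS (SE 0.11, adjusted p = 0.0588). Its call was lost without CD4 PBS 2, CD4 AzaC 2 or 3, or nTreg AzaC 1, 2 or 3 (adjusted p from 0.0527 to 0.132), and with each array centred on its median (adjusted p = 0.0732).

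The list was set beside 77 of 80 further genes of the same pathway and 24 of 25 genes of G2 and mitosis. Of the 77, limma called 3 higher and 0 lower with AzaC in nTregs, against 1.42% and 0.600% of all genes, and 7 higher and 2 lower in CD4 cells, against 0.830% and 0.933%, with medians of 0.11 and 0.12. Cdk6, the other kinase partner of the D cyclins, rose by 0.95 in nTregs (SE 0.13, adjusted p = 0.00145) and by 1.38 in CD4 cells (SE 0.13, adjusted p = 9.09e-05). Shmt1, which supplies one-carbon units for thymidylate, rose by 0.47 and 0.53 (adjusted p = 0.0483 and 0.028), and Skp2, which marks the inhibitor p27 for degradation, by 0.38 in nTregs (adjusted p = 0.049). In CD4 cells Dna2, a nuclease of the fork, rose by 0.72, Dctd, which makes dUMP, by 0.74, Hells, a chromatin remodeller needed for DNA methylation, by 0.63, and Tfdp1, the dimer partner of E2F, by 0.60 (adjusted p = 0.00671, 0.00725, 0.00637 and 0.0223). Cdkn1a, the p21 inhibitor of cyclin-dependent kinases, rose in CD4 cells by 1.95 (SE 0.12, adjusted p = 2.61e-06), and differed by 0.33 in nTregs (adjusted p = 0.175). The AzaC calls of Cdk6 in both populations and of Dna2, Dctd, Hells and Cdkn1a in CD4 cells held without each of the 12 arrays. Tfdp1 lost its call without CD4 PBS 1 or 2 or CD4 AzaC 2 or 3 (adjusted p up to 0.116). Shmt1 lost it in nTregs without 9 of the 12 arrays (up to 0.2) and in CD4 cells without 5 (up to 0.115), and Skp2 without 11 (up to 0.196). Between the populations limma called 5 of the 77 higher and 15 lower in nTregs under PBS, against 3.90% and 4.12% of all genes, and 2 higher and 12 lower with AzaC, against 4.57% and 2.19%.

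The G2/M genes did not share the direction of the replication genes under the drug. With AzaC 0 of 24 rose in either population (1.42% of all genes in nTregs and 0.830% in CD4 cells), 2 fell in nTregs (0.600%) and 1 fell in CD4 cells (0.933%). Their medians were −0.24 in nTregs and −0.23 in CD4 cells. Bub1, a kinase of the spindle checkpoint, fell by 0.52 (SE 0.11, limma adjusted p = 0.0276) and Cenpe, a kinetochore motor, by 0.46 (SE 0.10, adjusted p = 0.0378) in nTregs. Cdc25c, the phosphatase that activates CDK1 at mitosis, fell by 0.49 in CD4 cells (SE 0.11, adjusted p = 0.0489). Bub1 lost its call without nTreg PBS 1 or any nTreg AzaC array (adjusted p up to 0.136), Cenpe without 8 of the 12 arrays (up to 0.167) and Cdc25c without 10 (up to 0.181). Averaged over both populations 6 fell, against 1.66% of all genes: the 3 above with Nusap1, Kif11 and Birc5. Birc5 lost this call without 11 of the 12 arrays (limma adjusted p up to 0.128), and Kif11 and Nusap1 without 9 each (up to 0.121 and 0.0968). Mki67, the marker of cycling cells, differed by −0.04 in nTregs and −0.01 in CD4 cells with AzaC.

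Per array the G2/M genes had median deviations of −0.34, −0.38 and −0.39 in nTregs with AzaC and −0.24, −0.09 and −0.05 in nTregs with PBS. In CD4 cells these were 0.10, 0.25 and 0.09 with AzaC and 0.30, 0.35 and 0.48 with PBS. So the AzaC arrays lay below the PBS arrays, the reverse of the order found for the 40 replication genes. Between the populations both lists ran the same way: 18 of 24 G2/M genes were called lower in nTregs under PBS (4.12% of all genes) and 16 with AzaC (2.19%), with medians of −0.50 and −0.54 where all genes had 0.03 and −0.04. These lists were described by counts and medians, and no test set the lists against each other.

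**Figure D5:**
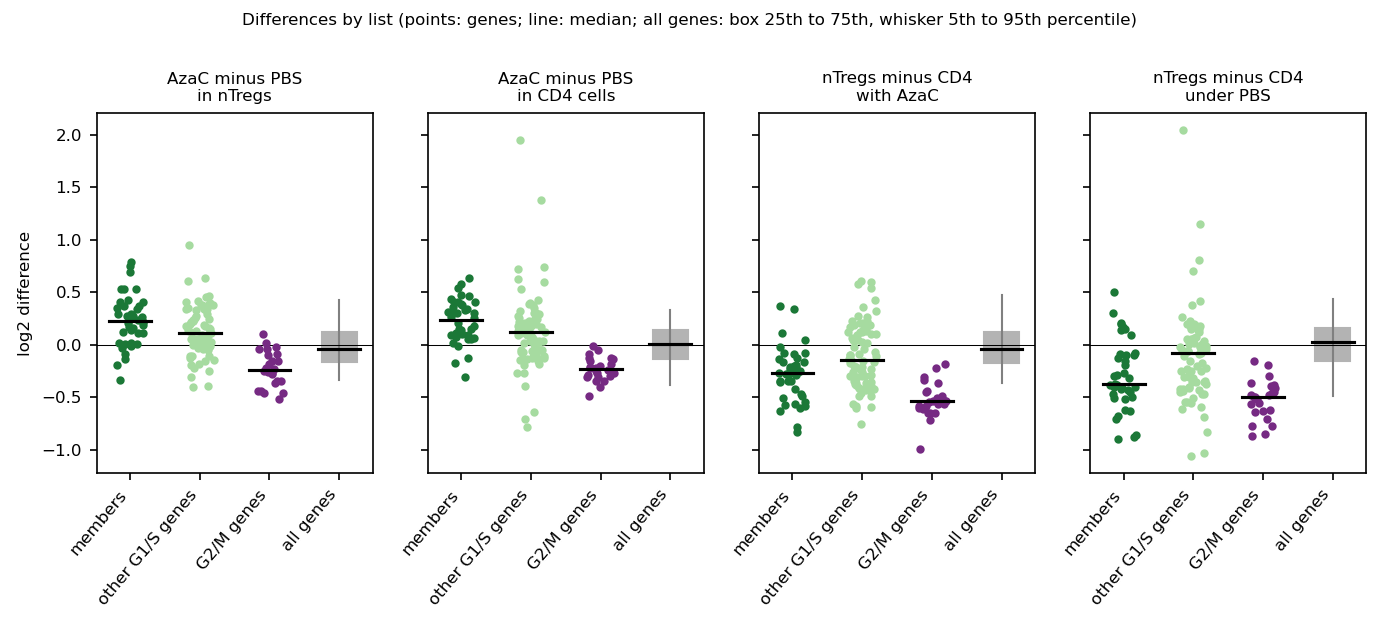
Log2 differences (vertical axis) in 4 comparisons for the 40 replication genes (members), 77 other genes of G1/S and replication, 24 genes of G2/M and all 22180 genes. Points are genes and lines medians; with AzaC the medians of the members are 0.23 in both populations and those of the G2/M genes −0.24 and −0.23.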

How the data were processed

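RNA of sorted mouse T cells had been labelled with biotin by the Affymetrix WT Pico kit and hybridised to 12 arrays, per the labels' protocols. Per the submitters' processing notes, the authors ran RMA in Affymetrix Expression Console (versions not stated), and the deposited values are the log2 signals it gives. RMA subtracts background, forces the probe signals of all arrays to the same distribution and pools the probes of each set. The scale is relative within these arrays, and an overall shift of all genes would be largely removed. After pooling, the array medians over all rows still differed. They were 6.8, 6.72 and 6.77 in CD4 cells with AzaC and 6.7, 6.72 and 6.67 in CD4 cells with PBS. In nTregs they were 6.69, 6.68 and 6.69 with AzaC and 6.78, 6.73 and 6.72 with PBS. Genome build and annotation version: not given in the sources used here.

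Of 41345 rows, 23521 carry exactly 1 symbol in the platform's probe table, 1814 several and 16010 none. The brightest row of a gene was kept, which left 22180 genes. In R 4.3.3, limma 3.58.1 (with statmod 1.5.0) fitted the 4 group means to the 12 arrays together, with 8 residual and 5.95 prior degrees of freedom, and p-values were adjusted by Benjamini-Hochberg over all 22180 genes. The code was tested on simulated data. The number of arrays limits the precision.

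The genes followed, the lists and the alternatives were chosen with earlier results of these data known. The 12 values are given for each gene called in any of 6 comparisons or separate in the same direction in both AzaC comparisons. Other genes of the list are given by role. Further pathway and G2/M genes are named where an AzaC comparison called them, at most 8 a list by smallest p. Summed marker signals are log2 of the sum of linear signals. Markers of erythroid cells were listed but had no row of their own. Alternatives were other scalings, a filter on dim genes, the mean over a gene's rows, a fit on only the groups compared, the replicate number as a block, array weights, a variance trend, and leaving out each array. Promoter windows came from RefSeq.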

Additional observations from a re-analysis of the deposited data

Results flagged for a closer look

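Cdkn1a encodes the p21 inhibitor and belongs to the wider G1/S pathway but not to the 42 genes. Among the named genes of G1/S, replication and G2/M, it alone passed a test of unequal AzaC effects in the populations. The interaction of Cdkn1a was −1.62 (SE 0.16, limma adjusted p = 0.00126). Of the cell type markers, the NK marker Klrd1 passed the same test, at 1.78 (limma adjusted p = 0.0178). Cdkn1a averaged 12.15 ± 0.08 in nTregs with AzaC and 11.82 ± 0.21 in nTregs with PBS, and 11.73 ± 0.09 in CD4 cells with AzaC and 9.78 ± 0.10 in CD4 cells with PBS (SD, n = 3 arrays each). Of the 40 measured genes of replication limma called 0 for this interaction.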

How the results depend on the processing

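Settings changed how many of the 40 genes passed, and never the direction of a call: of 772 values of their 39 calls under an alternative, 598 kept direction and side of the threshold, 174 kept the direction and no longer passed, and 0 reversed. For the other named genes 566 of 721 kept both, 155 no longer passed and 0 reversed. Of the 39 calls over the 6 comparisons, 15 held without each of the 12 arrays and 11 in every setting run. In nTregs AzaC gave 3 calls, beside 2.02% of all genes. It gave 1 in a fit on only the groups compared (0.564%) and 7 with array weights (5.82%), which give nTreg PBS 1 a weight of 0.19. In CD4 cells AzaC gave 6 calls (1.76% of all genes), but 1 with each array centred on its median (2.18%). It gave 2 with only the groups compared (1.79%) and 12 with array weights (5.82%). nTregs against CD4 cells under PBS gave 12 calls (8.01% of all genes), but 3 with only the groups compared (2.92%). The average over both populations gave 8 (3.71% of all genes). It gave 13 with the filter on dim genes (8.18% of 12300 genes) and 18 (17 higher, 1 lower) with array weights (8.17%). Fewer samples or fewer genes tested enter by construction in the fits on groups and with the filter, and for the centring and the weights the cause was not tested. Leaving out 1 array gave 1 to 4 calls in nTregs (0.839% to 2.02% of all genes) and 0 to 11 in CD4 cells (0.739% to 4.71%). It gave 0 for the interaction (0.0406% to 0.311%) and 5 to 11 for the average (2.27% to 5.61%). For nTregs against CD4 cells it gave 6 to 13 under PBS (4.70% to 8.39%) and 5 to 13 with AzaC (4.04% to 11.1%).

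The replicate number was also tried as a replicate block. Arrays with the same number correlated in their deviations at −0.099 to 0.187 over 18 pairs, and those with different numbers at −0.230 to 0.175 over 36 pairs. Between nTregs and CD4 cells under the same drug, same numbers gave 0.021 to 0.092 and different numbers −0.054 to 0.024. The ranges overlapped and the protocols state no pairing, so the numbers were not taken as pairs. The block joined all groups of a number, and a block within each drug was not fitted. The replicate block gave 3 calls in nTregs (2.03% of all genes), 4 in CD4 cells (1.71%) and 0 for the interaction (0.180%). It gave 10 for nTregs against CD4 cells under PBS (8.23%), 9 with AzaC (6.47%) and 6 for the average (3.66%). All 40 genes lay above the dim end of the arrays: their lowest value was 6.48, and the fifth percentile of an array was 3.94 to 4.19.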

Other observations

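Dut, Rrm2, Fen1 and Pole have a second, dimmer row of their own on the array. Its values correlated with those of the row used at 0.33 for Dut, 0.58 for Rrm2, 0.57 for Fen1 and −0.07 for Pole over the 12 arrays, as a description of rows that share all their arrays. The second row of Pole averaged 5.54 in nTregs with AzaC and 5.70 in nTregs with PBS, and 5.66 in CD4 cells with AzaC and 5.63 in CD4 cells with PBS. That of Rrm2 averaged 7.02 in nTregs with AzaC and 7.09 in nTregs with PBS, and 7.29 in CD4 cells with AzaC and 7.26 in CD4 cells with PBS.

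The arrays at the ends of the 40 genes' ranges were few. CD4 AzaC 2 held the highest value of the 12 arrays for 20 of the 40 genes, against 5.74% of all genes, and CD4 AzaC 1 for 7, against 13.6%. nTreg PBS 1 held the highest value for 3 of the 40 genes, against 20.9% of all genes. Gmnn, Gins1 and Pole2 were highest there, with 11.19, 9.44 and 9.34; they were picked out after their values were seen. Gmnn measured 10.78, 10.45 and 10.65 in nTregs with AzaC against 11.19, 10.62 and 10.63 in nTregs with PBS, so that array nTreg PBS 1 was at opposite ends of the range for Gmnn and for most MCM genes.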
